A study of Bos taurus with 12 samples.

Results

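The genes described here are 40 genes of the cell cycle: 16 that act in S phase (licensing and copying of DNA, and the supply of nucleotides for it), 21 that act in mitosis, and the 3 D cyclins. They were taken by symbol from the probes of bovine oligonucleotide arrays, each probe being named through the RefSeq transcript that the array files give for it. Probes were found for 36 of the 40 genes, 79 probes in all, among the 12787 genes that the arrays named. The genes CDT1, MCM2, MKI67 and TOP2A had no probe named this way and are not analysed here, so the most used markers of dividing cells, MKI67 and TOP2A, have no value below.

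The RNA came from biopsies of the mammary gland (MG) of midlactation Holstein cows fed a total mixed ration. In the CONT group (day 0) the cows ate ad libitum, and in the REST group (day 6) their feed allowance had been reduced below the energy requirement of lactation. Each group had 6 arrays, and the labels name the same 6 cows in both, so every REST array could be set against the CONT array of the same cow; the series description counts 5 cows. The methods state that a Holstein cow was excluded because of mastitis, and the labels do not tell whether that cow is among the 6. The biopsies were taken from the rear of the udder on alternating sides, so day, feed allowance and biopsy site within a cow cannot be told apart. The question the pairs answer is how the MG transcripts of cows differed between free intake and feed restriction.

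Signals are given as log2 of the processed intensity minus the 75th percentile of the same array, so that 0 is the level of that percentile. Levels are read within a gene only, because a probe's brightness also depends on its sequence. The arrays of cows 5 and 6, on slide 3, were much dimmer than the others: 41.9 to 48.0% of their spots passed the scanner software's test for lying well above background, against 61.8 to 67.9% on slides 1 and 2. Before scaling, the 75th percentile was higher in REST in every one of the 6 cows, with a mean log2 difference of 0.30 ± 0.10 (SD, n = 6). Of the markers of the secretory epithelium, 8 of 9 luminal epithelial marker genes with a probe stood well above background in every sample. So did 57.6% of all named genes, all 6 endothelial markers and all 6 fibroblast markers, so the count does not single out the tissue.

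A cell enters the cycle when D cyclins, with their kinases, release the block that the retinoblastoma protein sets on S phase genes. The MCM helicase is then loaded on DNA and unwinds it together with CDC45, PCNA holds the polymerases on the strand, and ribonucleotide reductase (RRM1 and RRM2), thymidylate synthase (TYMS) and thymidine kinase (TK1) supply nucleotides. In mitosis CDK1 with the A and B cyclins, the polo and aurora kinases and the spindle checkpoint bring the chromosomes apart. In the lactating gland of ruminants most secretory cells are differentiated, and cell renewal is slow.

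Fewer mitotic than S phase genes were detected throughout. This counts detection over probes whose brightness also depends on their sequence, and the difference was not tested. With any of its probes, 9 of 14 S phase genes (64.3%), 3 of 19 mitotic genes (15.8%) and all 3 D cyclins lay well above background on all 12 of the arrays. The share over all 36 genes was 41.7%, and over all 12787 named genes it was 57.6%. In bulk tissue, few cells that express a gene and little RNA in each cell cannot be told apart. A further 6 of the 36 genes, or 16.7%, were above background on no array, against 15.8% of all genes. These were CCNE2 and CDC6, which act at the start of S phase, and CCNB1, AURKB, KIF11 and CENPF of mitosis.

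**Figure D1:**
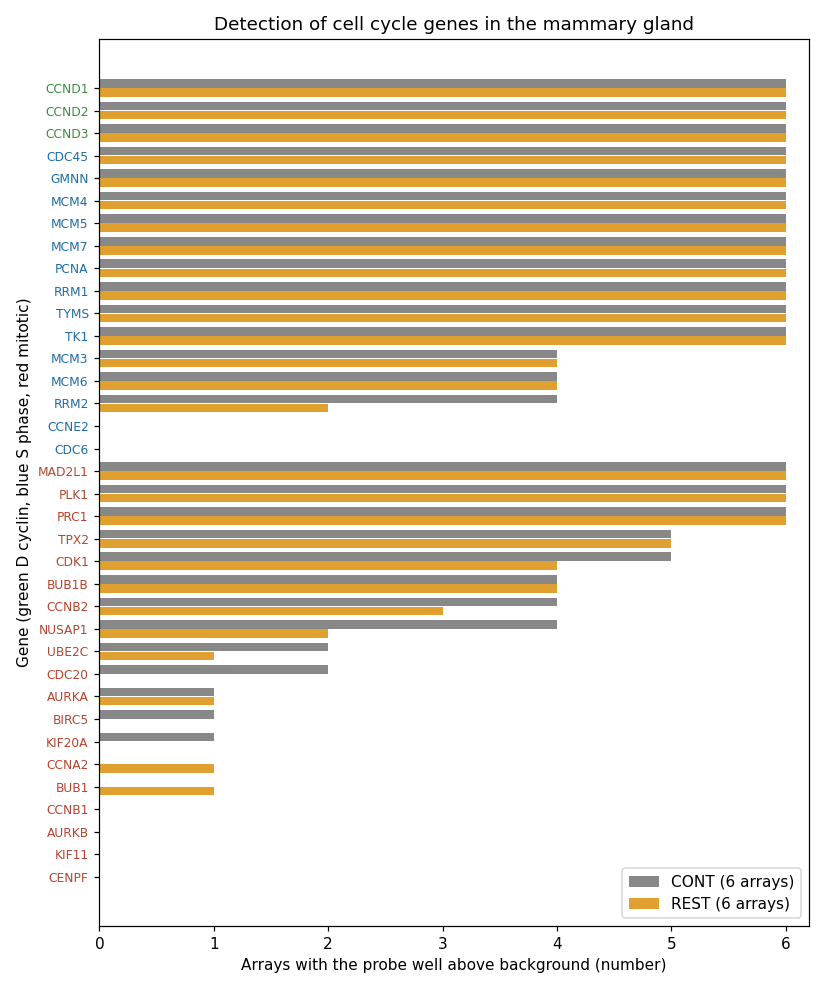
Number of CONT arrays (grey bars) and REST arrays (orange bars), of 6 each, on which the probe of highest signal of each of the 36 genes was well above background. The D cyclins and 9 S phase genes reached 6 in both groups, but only 3 of the mitotic genes did, MAD2L1, PLK1 and PRC1.

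A gene was tested when a probe was well above background on every array of at least 1 group, which 15 of the 36 genes passed. Of these 15, 1 was called higher in REST, MCM7, and 1 was called lower, CCND1 (limma with the cow as a block, adjusted p under 0.1). The background was similar or larger, since 16.2% of the 7932 genes tested were called, 6.95% as higher and 9.27% as lower. Without the block, CCND1 alone was called among the 15, where 4.41% of all genes were. The median change of the 15 genes was 0.07 on the log2 scale, with 11 means higher and 4 lower, and that of all genes tested was -0.01.

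**Figure D2:**
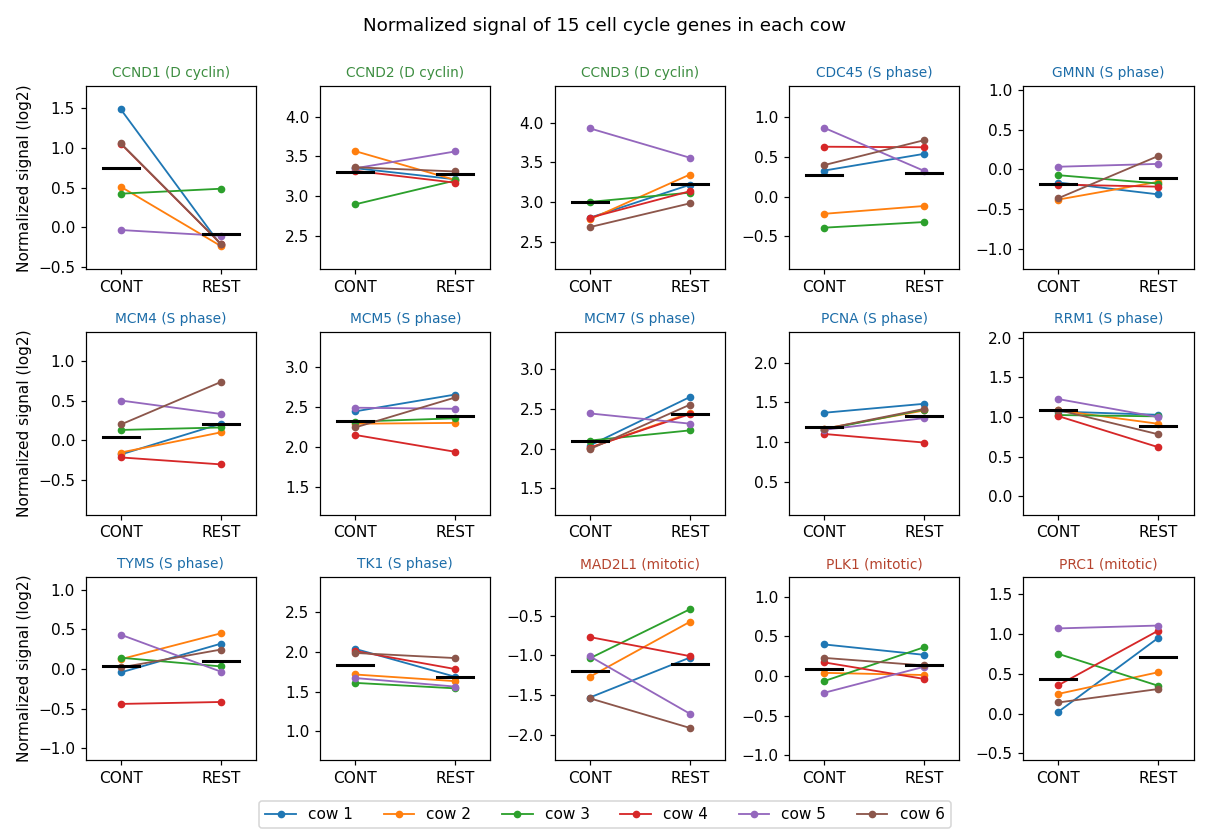
Normalized signal (log2 units, each panel spanning the same range) of the 15 tested genes on the CONT and REST array of each cow, with cows as coloured lines and group means as black bars. The lines of CCND1 converge in REST, where 5 cows lie between -0.24 and -0.11, and those of MCM7 go up in 5 of 6 cows.

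Of the 3 D cyclins, CCND1 was called and CCND2 and CCND3 were not, and the difference between them was not tested. CCND1 (NM_001046273), the cyclin that carries growth factor signals into the cycle in epithelia, had a lowest, median and highest signal of -0.03, 0.78 and 1.49 in CONT and of -0.24, -0.21 and 0.49 in REST. The CONT cows were widely spread, while 5 of 6 REST cows lay close together and cow 3 stood above them, and the groups overlapped. CCND1 fell by 0.83 ± 0.23 (SE, n = 6 pairs) on the log2 scale, to 0.562 times its CONT signal (limma adjusted p = 0.059 with the cow as a block and 0.083 without).

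By cow, the CCND1 change was -1.71, -0.75, 0.06, -1.26, -0.07 and -1.26 in cows 1 to 6. Signal was thus lower in 5 of 6 cows, with cows 3 and 5 close to 0. The call did not hold when cow 1, 2, 4 or 6 was left out, when limma's adjusted p became 0.135, 0.141, 0.158 or 0.117 and the change stayed between -0.85 and -0.66, nor without the filter (0.172). In the methods' t-test, across all tested probes and without limma's shared variance, its adjusted p was 0.137 unpaired, and 0.174 with the cow added as a block. Only 1 probe of CCND1 was on the array, so no second probe bears on it. The median change of the 6 fibroblast markers in the same cows was -0.95, -0.71, 0.52, 0.14, -0.16 and -0.69, so in cow 4 it had the other sign. FABP4, the only tested adipocyte marker, changed by -0.31, -0.38, -0.08, -0.56, -0.26 and -0.54. By cow, luminal medians ran from -0.16 to 0.34, myoepithelial from -0.31 to 0.33, leukocyte from -0.15 to 0.27 and endothelial from -0.16 to 0.40. The part of any cell type in the CCND1 change was not tested.

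CCND2 (NM_001076372), another D cyclin, ranged from 2.90 to 3.57 in CONT with a median of 3.35, and from 3.17 to 3.56 in REST with a median of 3.21. The groups overlapped almost wholly. Its change was -0.03 ± 0.10 (SE; limma adjusted p = 0.866), with a 95% confidence interval from -0.26 to 0.20, and its sign turned under quantile normalization (0.02).

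CCND3 (NM_001034709), the D cyclin also found in differentiated cells, had a lowest, median and highest signal of 2.69, 2.80 and 3.93 in CONT and of 2.99, 3.18 and 3.56 in REST. The highest CONT value was that of cow 5, the only cow in which CCND3 was lower in REST, and the groups overlapped. The change was 0.23 ± 0.12 (SE; limma adjusted p = 0.262), with an interval from -0.05 to 0.50, and its second tested probe gave 0.12. Without cow 5 the change was 0.35 (limma adjusted p = 0.0617), which is past the threshold, and so was the value after normexp background correction, 0.33 (0.0783).

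Of the 9 tested S phase genes, 7 had a higher mean in REST and 2 a lower one, with a median change of 0.07. By cow this median ran from -0.13 in cow 5 to 0.31 in cow 6 and was above 0 in 4 cows. MCM7 (XM_005225185), a subunit of the replicative helicase, had a lowest, median and highest signal of 1.99, 2.02 and 2.44 in CONT and of 2.23, 2.44 and 2.65 in REST. All CONT cows but cow 5 lay below every REST cow, and cow 5 was the highest CONT cow and the only one to be lower in REST.

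MCM7 rose by 0.34 ± 0.11 (SE, n = 6 pairs) on the log2 scale, 1.26-fold (limma adjusted p = 0.093 with the cow as a block and 0.128 without). A second probe of the gene gave nearly the same change, 0.35, and missed the threshold (adjusted p = 0.104). Without cow 1, 2, 3, 4 or 6, limma's adjusted p was 0.212, 0.220, 0.113, 0.210 and 0.176, and it was 0.109 under a median shift, 0.212 without the filter, and in the methods' t-test 0.110 unpaired and 0.169 with the cow added as a block. The change stayed positive in every setting tried, from 0.28 to 0.43.

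Of the other subunits of the same helicase, MCM5 and MCM4 were tested and not called, and their difference from MCM7 was not tested. MCM5 (NM_001075290) had a median of 2.30 in CONT (2.15 to 2.49) and of 2.42 in REST (1.94 to 2.66), a change of 0.07 ± 0.09 (SE; limma adjusted p = 0.662) that was 0.041 without cow 1, 0.126 without cow 4 and 0.0075 without cow 6. MCM4 differed by 0.16 ± 0.11 (SE; limma adjusted p = 0.379), and its 3 tested probes gave 0.11 to 0.26. The groups overlapped in both genes. MCM3 and MCM6 were above background on all 8 arrays of slides 1 and 2 and on no array of slide 3, and were not tested over the 6 cows.

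PCNA (NM_001034494), the sliding clamp of the replication fork, had a lowest, median and highest signal of 1.103, 1.16 and 1.37 in CONT and of 0.995, 1.40 and 1.48 in REST. It was higher in 5 of 6 cows, cow 4 being the exception and the lowest REST cow, and the groups overlapped. The change was 0.15 ± 0.08 (SE, limma adjusted p = 0.269), with a 95% confidence interval from -0.03 to 0.33. A dimmer second tested probe of PCNA gave -0.01 (limma adjusted p = 0.979), with 3 cows higher and 3 lower. GMNN, which blocks a second loading of the helicase, and CDC45, which travels with it, changed by 0.09 and 0.02 (limma adjusted p = 0.629 and 0.913).

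With the brightest probe, the nucleotide supply genes RRM1 and TK1 were lower in REST in 6 of 6 cows each, without passing the test. The change was -0.19 ± 0.08 (SE) for RRM1, the large subunit of ribonucleotide reductase, and -0.15 ± 0.08 for TK1, which salvages thymidine (limma adjusted p = 0.170 and 0.241). Their 95% confidence intervals ran from -0.38 to -0.01 and from -0.33 to 0.02. A second tested probe of RRM1 gave -0.13 (limma adjusted p = 0.388) and was lower in 5 of 6 cows. TYMS, which makes thymidylate anew, differed by 0.06 (0.772). RRM2, the subunit of the reductase that is made in S phase, was above background on 4 CONT and 2 REST arrays, all on slides 1 and 2, and was not tested.

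**Figure D3:**
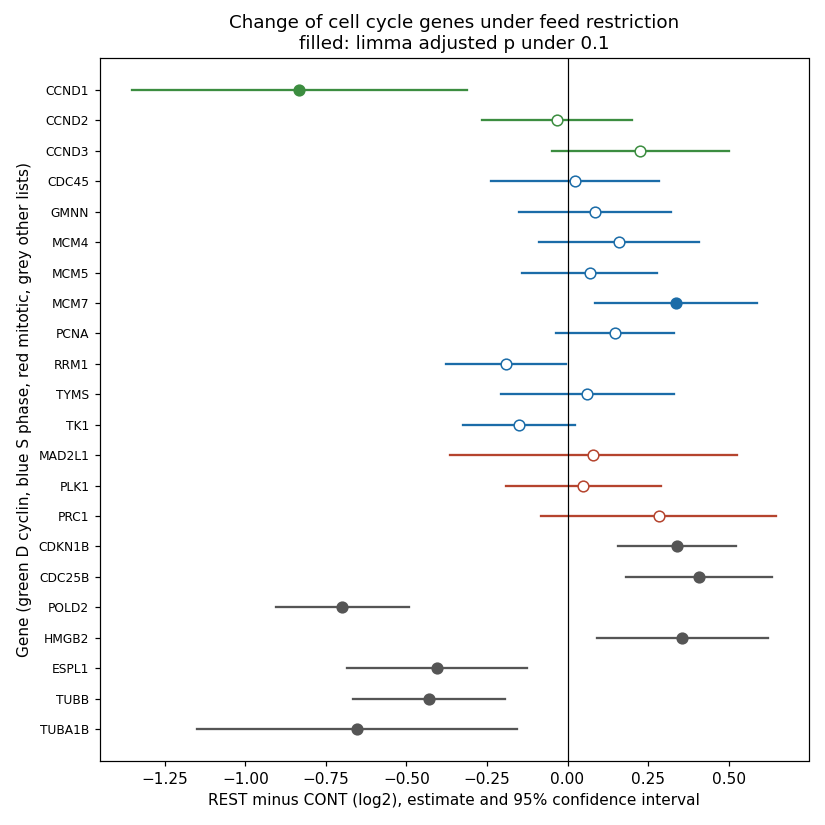
REST minus CONT (log2) with 95% confidence intervals for the 15 tested genes and for the called genes of other cell cycle lists (grey), from limma with the cow as a block; filled points have an adjusted p under 0.1. CCND1 at -0.83 and MCM7 at 0.34 are the filled coloured points, and among the grey points POLD2 lies at -0.70 with a narrow interval.

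Of the mitotic genes 3 could be tested, and none was called, nor had any an unadjusted p under 0.05 (limma, 0 of 3). PLK1 (NM_001038173), the polo kinase that drives mitotic entry, had a median of 0.11 in CONT (-0.21 to 0.40) and of 0.12 in REST (-0.04 to 0.36). The groups overlapped fully, and the change was 0.05 ± 0.11 (SE; limma adjusted p = 0.798). Its sign turned without cow 3 (-0.03) and without cow 5 (-0.01).

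PRC1 (NM_001076543), which bundles the microtubules of the central spindle, had a median of 0.30 in CONT (0.02 to 1.07) and of 0.74 in REST (0.31 to 1.11). It was higher in 5 of 6 cows, with cow 5 high in both groups, and the groups overlapped. The change of 0.28 ± 0.16 (SE) was not past the threshold (limma adjusted p = 0.290) and ran from 0.15 without cow 1 to 0.42 without cow 3. MAD2L1, of the spindle checkpoint, differed by 0.08 ± 0.20 (0.824), with values by cow from -0.72 to 0.69. The 3 genes' median change was 0.08 and lay between -0.21 and 0.50 by cow, and the S phase median lay above it in 2 of 6 cows, cows 4 and 6.

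CDK1 (NM_174016), the kinase at the centre of mitotic entry, was above background on 5 CONT and 4 REST arrays and so was not tested. Its signal had a lowest, median and highest value of -3.23, -2.73 and -2.39 in CONT and of -3.59, -2.97 and -2.19 in REST. It was lower in 5 of 6 cows, by 0.26 on average, and the groups overlapped.

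The remaining mitotic genes were seen on 10 arrays or fewer. TPX2, which activates aurora A on the spindle, was above background on 5 arrays of each group, BUB1B of the checkpoint on 4 of each, and CCNB2, a B cyclin, on 4 CONT and 3 REST arrays. NUSAP1, a spindle protein, was above on 4 CONT and 2 REST arrays, UBE2C, of the pathway that degrades cyclins, on 2 and 1, and AURKA, the aurora A kinase, on 1 and 1. CDC20, which starts anaphase, was above on 2 CONT arrays, BIRC5 and KIF20A on 1 CONT array each, and CCNA2 and BUB1 on 1 REST array each.

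Among the 19 mitotic genes, 7 were above background on more CONT than REST arrays and 2 on more REST arrays, with 10 equal. Over all 12787 genes, with the probe of highest signal, the balance ran the other way: 578 were above background on more CONT arrays and 1550 on more REST arrays. The 7 of 9 genes (77.8%) thus compare with 27.2% of all genes whose counts were unequal. This count was made after the values had been seen, and no test was run on it.

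When all 36 genes were taken, detected or not, the mitotic genes had a lower mean in REST in 15 of 19 cases with a median of -0.27. The 14 S phase genes split 8 higher and 6 lower with a median of 0.04, and all 12787 genes had a median of -0.04. Probes above background on no array leaned the same way whatever their gene. The 11601 such probes had a median change of -0.21, with 83.4% lower in REST. The 30 probes of cell cycle genes among them had a median of -0.24, with 28 lower. Of the 19 mitotic genes, 4 had only such probes. For these probes no level can be read.

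The probes detected on 1 to 5 arrays stood differently: 4858 probes in all had a median change of -0.03 with quartiles of -0.32 and 0.26, while the 11 cell cycle probes had a median of -0.57, 10 of them lower. With normexp on median spot signals and an offset of 50, in place of the processed intensity, these medians were -0.31 and -0.40, closer to each other. On 6 to 11 arrays the medians were 0.01 over all 9824 probes and -0.01 over 17 cell cycle probes. On all 12 arrays they were -0.01 over 17370 probes and 0.08 over 21. Normexp moved the other dim classes down too, to -0.22 and -0.23 on 6 to 11 arrays and -0.38 and -0.40 on no array. On all 12 arrays its medians were 0.01 and 0.05.

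**Figure D4:**
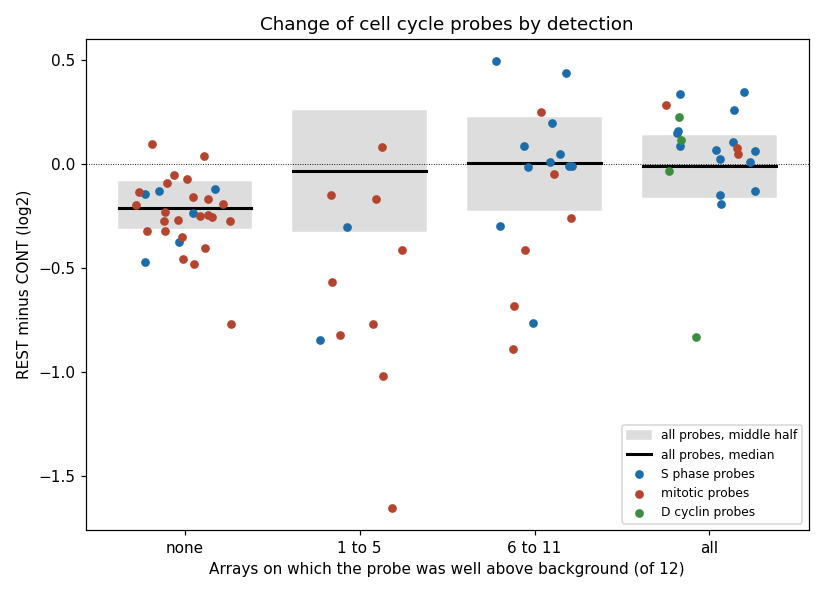
REST minus CONT (log2) of every probe of the cell cycle genes (points, coloured by role) by the number of arrays on which it was well above background, over the middle 50 percent of all probes (grey boxes) and their median (black lines). Most points on probes never above background lie below 0, as the grey box does, and the mitotic points of probes seen on 1 to 5 arrays reach down to -1.65.

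Some genes seen on part of the arrays of both groups had low differences, which include arrays where they were not above background and have no order: -1.65 for UBE2C, -0.89 for NUSAP1, -0.76 for RRM2 and -0.68 for CCNB2. For genes above background in 1 group alone (CDC20, KIF20A, BIRC5, CCNA2 and BUB1), a fold against the detection limit of the other group was under 1, so none is given. Tested without the filter, none of the 36 genes was called (limma, lowest adjusted p = 0.145, that of CCNB2), and 7 had an unadjusted p under 0.05 (19.4%, against 21.1% of all genes). Called without the filter were 1.16% of all genes.

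The brighter slides gave a view of more genes. On the 8 arrays of cows 1 to 4, a choice made after seeing the data, 23 of the genes passed the same filter, the added ones being MCM3, MCM6, RRM2, CDK1, CCNB2, BUB1B, TPX2 and NUSAP1. Of the 23, CCNB2 alone was past the threshold, as lower, where 10.4% of the 9702 genes tested were called, 5.78% as lower. It was above background on 4 CONT and 3 REST arrays and so entered only through the group in which it was high. Its difference of -0.83, lower in 4 of 4 cows, is therefore given without a test, and nothing is read from the count. TPX2 was lower in 4 of 4 cows too, by 0.45 on average, without passing the test (0.209).

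In these 4 cows the helicase subunits MCM3 and MCM6 differed by -0.08 and 0.07, CDK1 by -0.20 and BUB1B by -0.07, none of them called (limma). RRM2 and NUSAP1 entered only through CONT, each with 2 of 4 REST arrays above background, and differed by -0.99 and -0.77, given without a test. MCM7 at 0.40 and CCND1 at -0.91 were not called in this subset (limma adjusted p = 0.109 and 0.111).

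Brakes of the cycle were taken as a further list of 17 genes, of which 15 had a probe and 11 were tested. A single one, CDKN1B, was called with its probe of highest signal, as higher, where 16.2% of all genes were called and 6.95% as higher, and 4 were called with any tested probe (the cell cycle genes still 2), where the background over all genes was 20.5%. Means were higher in REST in 10 of 11 genes, with a median change of 0.21. By cow that median was 0.33, 0.53, 0.06 and 0.54 in cows 1 to 4 and -0.03 and -0.09 in cows 5 and 6, so it was above 0 in 4 cows.

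CDKN1B (NM_001100346), which encodes p27, an inhibitor of the kinases of the G1 to S step, had a lowest, median and highest signal of 1.32, 1.57 and 1.73 in CONT and of 1.77, 1.87 and 1.97 in REST. Every REST cow lay above every CONT cow. CDKN1B rose by 0.34 ± 0.08 (SE, n = 6 pairs), in 6 of 6 cows and by 0.21 to 0.56 (limma adjusted p = 0.041 with the cow as a block and 0.088 without). The call was lost without cow 2, without cow 4 and without the filter (limma adjusted p = 0.121, 0.106 and 0.149), with changes of 0.30 to 0.34.

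The other 3 inhibitor genes were called with another of their probes and not with the brightest. BTG1, an antiproliferative gene, changed by 0.49 with the called probe and by 0.39 with the brightest. GADD45A, a growth arrest gene, changed by 0.35 and 0.34, and WEE1, the kinase that holds CDK1 inactive, by 0.52 and 0.21. CDKN1A, which encodes p21, was looked at after its values had been seen: its change was 0.59 ± 0.38 (SE; limma adjusted p = 0.350), but by cow it was 1.47, 2.01 and 1.56 in cows 1, 2 and 4 and -0.37, -0.50 and -0.67 in cows 3, 5 and 6.

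**Figure D5:**
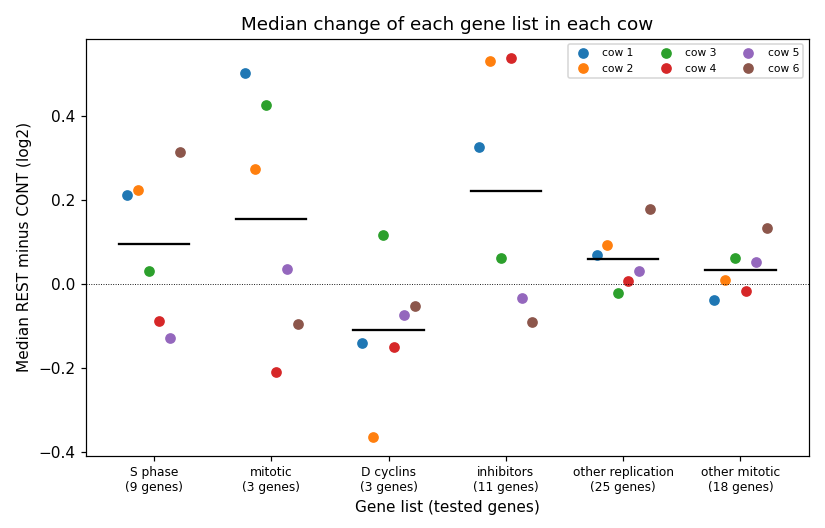
Median REST minus CONT (log2) of the tested genes of each list in each cow (coloured points), with the mean over the 6 cows as a black line. The S phase and mitotic medians lie on both sides of 0, and those of the inhibitors reach 0.54 in cow 4 and fall just below 0 in cows 5 and 6.

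Of 27 further kinases, phosphatases and transcription factors of the cycle, 11 were tested and 1 was called, as higher, where 6.95% of all genes tested were. This was CDC25B, a phosphatase that activates CDK1, with a median of -0.63 in CONT (-0.76 to -0.02) and of -0.21 in REST (-0.45 to 0.52). The groups overlapped but all 6 cows were higher in REST, by 0.41 ± 0.10 (SE; limma adjusted p = 0.043 with the block and 0.242 without). The call was also lost without cow 2 (0.129), on cows 1 to 4 (0.151) and without the filter (0.152).

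Of 39 further DNA replication genes, 25 were tested and 1 was called, as lower, where 9.27% of all genes tested were, with a median change of 0.07 over the list. POLD2 (NM_174428), the accessory subunit of DNA polymerase delta, had a lowest, median and highest signal of 3.63, 3.71 and 4.02 in CONT and of 2.71, 3.12 and 3.23 in REST. The groups did not overlap, and it was lower in 6 of 6 cows. POLD2 fell by 0.70 ± 0.09 (SE, n = 6 pairs), to 0.616 times its CONT signal (limma adjusted p = 0.0073 with the block and 0.0078 without).

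Its 3 tested probes gave -0.79 to -0.70, and POLD2 was called in all 20 alternative settings. POLD1, the catalytic subunit of the same polymerase, and POLD3, another accessory subunit, changed by -0.05 and 0.07 and were not called (limma adjusted p = 0.790 and 0.644), and the difference between subunits was not tested. With any probe, DNMT1, which maintains DNA methylation after replication, and RPA2, which coats single strands, were called too, where 20.5% of all genes were called with any probe. Both rose with the called probes, DNMT1 by 0.31 with 1 of 4 tested probes and RPA2 by 0.28 to 0.50 with 4 of 7.

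Of 51 further mitotic genes, 18 were tested and 4 were called, 3 as lower (ESPL1 among them, which passed the filter through CONT alone), where 16.2% of all genes tested were called and 9.27% as lower. TUBA1B and TUBB, which encode tubulins that every cell holds outside mitosis as well, fell by 0.65 ± 0.22 and 0.43 ± 0.10 (SE; limma adjusted p = 0.099 and 0.043). HMGB2, a chromatin protein, rose by 0.36 ± 0.12 (0.094). ESPL1, the separase that opens cohesin, was above background on 5 of 6 REST arrays, and its difference of -0.41 is given without a test. Without the block none of the other 3 was called (0.126 to 0.226), and the list's median change was 0.05. Only 15 genes of the list were above background on all 12 arrays, so some besides ESPL1 passed the filter through 1 group alone. The calls were lost in 8 of 20 settings for TUBB and in 11 of 20 for TUBA1B and for HMGB2, among them without cow 4 and after normexp for each, where TUBB changed by -0.27 and HMGB2 by 0.19 (limma adjusted p = 0.112 and 0.232).

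Of the tested cell type markers, 2 of 8 luminal, 3 of 7 myoepithelial and 2 of 13 leukocyte genes were called. The counts were 1 of 6 for endothelial, 0 of 6 for fibroblast and 1 of 1 for adipocyte genes. Over all genes tested, 16.2% were called. Without the block, 1 endothelial marker was called and 0 in each other marker list, where 4.41% of all genes were. Of 8 tested luminal epithelial markers, KRT8 and KRT18 were called higher, by 0.72 and 0.52, and LALBA was called with another probe only, as lower by 0.23. Of 7 myoepithelial markers, KRT17 was called higher and ACTA2 and CNN1 lower. Of 13 leukocyte markers, CD3E of T cells was called higher, by 0.35, while 7 means were lower and the median change was -0.04. Among these 7 were PTPRC, CD2 and CD4, at -0.15, -0.17 and -0.22, each lower in 5 of 6 cows and not called. CD8A was also past the threshold, at 0.45, but was above background on 5 of 6 CONT arrays and passed the filter through REST alone. Of 6 endothelial markers, VWF was called higher, by 0.54, and of 6 fibroblast markers none was called with its brightest probe, with 2 at an unadjusted p under 0.05 (limma) and COL1A1 called with another probe. Their median change was -0.36, with 4 of 6 means lower. The only tested adipocyte marker, FABP4, fell by 0.35.

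Summed linear signals relative to the 75th percentile add probes of unequal brightness and follow the brightest. In the luminal list this was the milk protein gene LALBA, at 9.69 to 10.37 on the log2 scale in CONT, so KRT8 and KRT18 hardly show in that sum. Luminal markers ran from 1096 to 1556 in CONT and from 1024 to 1328 in REST, and leukocyte markers from 32.8 to 40.2 and from 34.7 to 42.3. Myoepithelial sums ran from 92.1 to 174 and from 77.4 to 159, endothelial ones from 10.1 to 13.4 and from 11.9 to 14.4, and fibroblast ones from 34.2 to 63.9 and from 26.4 to 73.5. FABP4, alone in the adipocyte sum, ran from 141 to 210.4 and from 97.99 to 145. The groups overlapped in each of these sums. Of the marker genes with a probe, 1 of 8 myoepithelial, 2 of 15 leukocyte and 1 of 4 adipocyte genes were above background on no array. The part of cell composition in the changes of the cell cycle genes was not tested.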

How the data were processed

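Total RNA of 12 biopsies was labeled with Cy3 and hybridized to bovine 4 × 44K arrays, 4 on each of 3 slides, with both arrays of a cow on the same slide. Per the file headers, the authors extracted spot intensities with Agilent Feature Extraction 11.0.1.1. Every spot of the deposited scanner files has a processed (background-subtracted) intensity on a linear scale, with no scaling between arrays, and the deposited series table holds the same intensities. The authors' 75th percentile shift was therefore computed here: log2 processed intensity minus the array's own 75th percentile over its 43803 non-control spots. Spots marked as outliers (1 to 13 per array) were left out, no spot was saturated (0 per array), and repeat spots were averaged. Of 43653 probes, 27131 received a symbol through RefSeq transcripts (12787 genes). The files name an older assembly than the gene table, so no coordinates are given, and no sequences are printed.

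A probe was tested when well above background on every array of at least 1 group (19406 probes), and a gene was represented by its tested probe of highest mean signal. The REST arrays were set against the CONT arrays in limma 3.58.1 (R 4.3.3), with the cow as a fixed block and Benjamini-Hochberg adjustment over all tested probes at 0.1, two-sided. The study's methods name t-tests moderated with Benjamini-Hochberg correction, and no block. The block follows the cow named in the labels. Limma without this block, and unmoderated t-tests with and without it, were alternatives. Deviations from the group means correlated at 0.36 to 0.57 between the arrays of a cow and at -0.33 to 0.13 between cows. Of all probes tested, 3105 were called (16.0%), and 837 without the block. Confidence intervals are at 95%. Normexp background correction (offset 50) used median spot signals, as the files hold no mean signals. The test was checked on simulated data. Python 3.11.15, pandas 2.3.3 and matplotlib 3.10.9 read the files and drew the plots.

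Named genes were the called ones, the 2 genes of highest signal in each role, CDK1, PCNA, the D cyclins, and up to 4 called genes of each further cell cycle list; other genes are given where a count needed them. The genes and lists were chosen with earlier results of these data known. Precision is limited by the number of arrays.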

Additional observations from a re-analysis of the deposited data

Results flagged for a closer look

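Single cows stood apart within a group in 9 of the 44 sets of 6 values examined (22 genes in 2 groups), by the gap to the nearest cow divided by the range of the group. Chance gives about 1 in 20, or 2.2 of 44.

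In CONT, cow 5 was the highest for MCM7 (gap over range 0.759), at 2.44 against 1.99 to 2.10 in the others. It was also the highest for CCND3 (0.745), at 3.93 against 2.69 to 3.004, and for RRM1 (0.642), at 1.23 against 1.01 to 1.09. In REST, cow 5 was the highest for CCND2 (0.641), at 3.56 against 3.17 to 3.31.

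Cow 1 was the highest CONT cow for PCNA (0.755), at 1.37 against 1.103 to 1.17, and for POLD2 (0.652), at 4.02 against 3.63 to 3.76. In REST, cow 4 was the lowest for PCNA (0.63), at 0.995 against 1.30 to 1.48. Cow 3 was the lowest CONT cow for CCND2 (0.629), at 2.90 against 3.32 to 3.57, and the highest REST cow for CCND1 (0.821), at 0.49 against -0.24 to -0.11.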

How the results depend on the processing

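The count of cell cycle genes called was 2 of 15, CCND1 and MCM7, with the highest-signal probe or with any probe. It was 1 under a median shift, 1 with no replicate block and 1 with the probe of second highest signal. It was 0 without the filter, in an unmoderated t-test with the cow block and in an unmoderated t-test, unpaired. In these settings, in that order, 7 of 36, 5 of 15 and 3 of 15 had an unadjusted p under 0.05. The unpaired t-test was chosen after seeing the data. On cows 1 to 4 it was 1 of 23, CCNB2, which entered only through CONT, where it was high, and neither CCND1 nor MCM7 was called. With 1 cow left out it was 0 to 3, and 0 came without cow 1, 2, 4 or 6, with 2 or 3 genes at an unadjusted p under 0.05. Over all probes (3105), 388 were called without the filter, 837 without the pairing block, 1899 with the slide as the block, 1853 and 723 in the t-test with the block and unpaired, and 1044 to 3292 with 1 cow left out, the lowest without cow 2. In the further cell cycle lists (7 called, among them ESPL1, which passed the filter through CONT alone), the count was 2 without the filter, 2 without the block, 2 in the unpaired t-test, 4 with the slide as the block, 11 with trend and robust variances, 12 with the cow as a random block, 12 after normexp, and 2 to 11 with 1 cow left out. The median change of the cell cycle genes (0.07) was -0.13 without the filter, -0.014 on cows 1 to 4, and 0.028 (without cow 6) to 0.138 (without cow 5) with 1 cow left out, and that of the mitotic genes -0.27 without the filter and 0.60 on slide 1 alone, -0.14 on cows 1 to 4 (8 genes, 2 of them entered through CONT alone), and -0.027 (without cow 3) to 0.24 (without cow 5) with 1 cow left out. The CCND2 change turned to 0.069 after normexp, 0.016 under quantile normalization and 0.034 without cow 2, and ran from -0.099 to 0.034 with 1 cow left out. PLK1 ran from -0.027 (without cow 3) to 0.1002 with 1 cow left out and was -0.0072 without cow 5. The cause was not tested in any of these. The S phase median (0.07) ran from 0.0075 (without cow 6) to 0.138 (without cow 5) and was -0.042 on slide 2 alone. With 4 arrays a slide, slides alone gave values and no test. Slide 3 was dim, so genes not detected there may be limited by signal over background.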
